A study of Mus musculus with 9 samples.

Results

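Mouse primary myoblasts treated with BMP4 were compared with mock-treated myoblasts, using 6 of the 9 arrays in the series, 3 arrays in each group. The cells were derived from satellite cells, the stem cells of skeletal muscle. They were grown on collagen-coated dishes with 20% fetal bovine serum and basic FGF, then moved to medium with 2% horse serum, where the shortage of serum lets myoblasts begin to differentiate. In that medium they received recombinant BMP4 at 100 ng/ml or a mock treatment, and RNA was taken after 24 h. The remaining 3 arrays hold myoblasts given 500 ng/ml of the BMP antagonist GREM1 in the same medium. They enter the fit for its estimate of the spread and are quoted only beside the BMP4 values. Age, sex and strain of the mice are not given in the labels. Nor do the labels say whether the 3 replicates of a group came from separate cultures or animals, so the p-values measure only the spread between these samples. Every value is a log2 expression level of a whole culture, on which a difference of 1 is a doubling, and in bulk RNA fewer cells of a type cannot be told apart from less RNA per cell.

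BMP4 is a secreted ligand of the TGF-beta superfamily. It brings type I and type II serine/threonine kinase receptors together, which phosphorylate the receptor SMADs (Smad1, Smad5 and Smad9). These enter the nucleus with Smad4 and switch on target genes such as the Id genes, whose products block the partners of MyoD, and the feedback inhibitors Smad6 and Smad7. In muscle, BMP signals are known to keep satellite cell progeny dividing and to hold back differentiation, and strong BMP signals can turn myoblasts in culture towards bone-forming cells.

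All 8 myoblast markers examined, among them Pax7, Myf5, Myod1, Des and Cdh15, lay above the filter on dim genes. Their mean level was 8.98 to 9.40 in the control arrays and 9.325 to 9.42 in the BMP4 arrays. Of the markers of other cells, 6 of 7 pericyte or smooth muscle, 3 of 7 fibroblast and 4 of 8 endothelial markers passed the filter. So did 3 of 7 leukocyte, 3 of 4 Schwann and 4 of 5 tendon markers. Pdgfra, Dcn, Kdr, Ptprc and Adgre1 were below the filter. The mean level of the pericyte or smooth muscle markers was 5.16 to 5.25 in the control arrays. Array medians ranged from 5.00 to 5.12, and precision is limited by having 3 arrays in a group. Control replicate 1 stood apart from the other 8 arrays on the second principal component, which held 20.9% of the variance (31.6 against 6.12 for the next array, BMP4 replicate 1).

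Few genes passed the test between BMP4 and control. Of 17142 genes tested, 20 passed the test (0.117%), of which 16 rose (0.0933%) and 4 fell (0.0233%). The test was limma with Benjamini-Hochberg adjustment at 0.05. The genes that rose include a lipid carrier (Fabp7), an osteoblast transcription factor (Sp7), the prostaglandin enzyme Ptgs2, the SMAD inhibitor Smad7 and the R-spondin receptor Lgr6. Growth factor genes (Vegfc, Pdgfc), matrix enzymes (P4ha3, Htra3) and the antiproliferative gene Btg2 rose as well. Those that fell were Fgf9, Itga3, Trp53i11 and the predicted non-coding RNA gene Gm20758. Only 6 of the 20 differed at least 2-fold. In every one of the 20 the groups did not overlap, which was so for 11.2% of all tested genes. The test picks genes whose groups lie apart, so that is no separate evidence. The SE of the 20 differences ran from 0.07 to 0.14. The median difference over all tested genes was -0.01, and 1375 genes (8.02%) had an unadjusted p under 0.05.

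**Figure D1:**
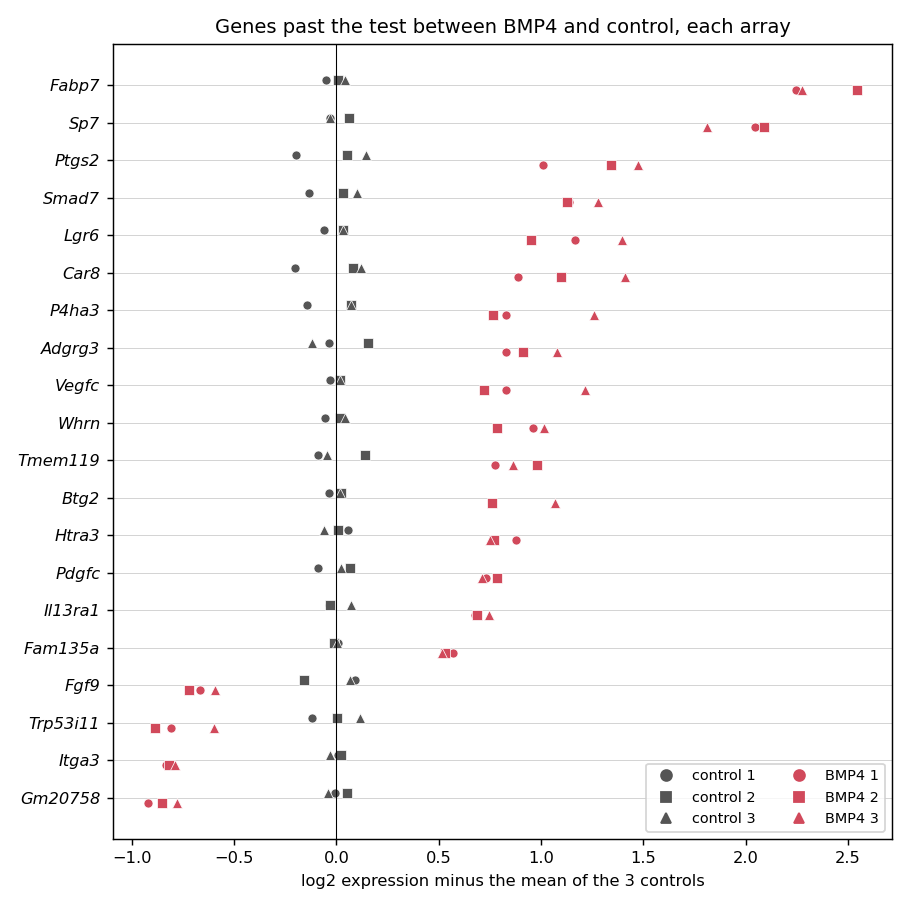
The 20 genes that passed the test, each array drawn as its log2 level minus the mean of the 3 controls, with circles, squares and triangles for replicates 1 to 3. All BMP4 points lie on 1 side of all control points in every gene, and the controls of a gene spread over at most 0.34.

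Fewer genes passed when any of the 9 arrays was left out. Without control replicate 1, 2 genes passed, without control replicate 2, 3 passed, and without control replicate 3, 2 passed. Leaving out BMP4 replicate 1, 2 or 3 left 10, 4 or 13 genes. Fabp7 and Sp7 passed with any 1 of the 9 arrays left out, whereas the other 18 genes each lost the call in at least 3 of these 9 fits. With replicate 1 of all groups left out together, a fit chosen after seeing the data, no gene passed, 888 had an unadjusted p under 0.05, and Fabp7 and Sp7 both had an adjusted p of 0.0789. The direction of all 20 genes was the same in each of these fits.

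**Figure D2:**
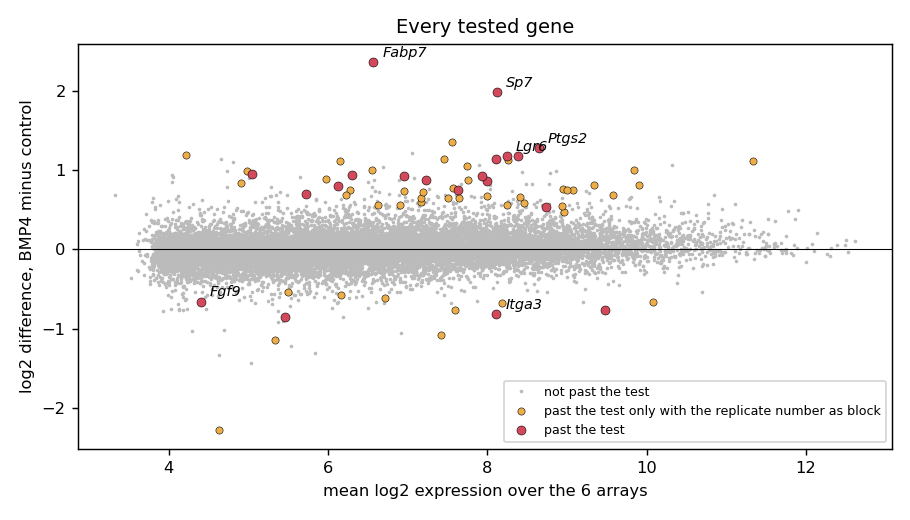
Log2 difference, BMP4 minus control, of each tested gene against its mean log2 level over the 6 arrays. Fabp7 (2.36) and Sp7 (1.98) stand above all other genes past the test, the 20 genes past the test are red, and the 45 that passed only with the replicate number as block are yellow.

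BMP4 and control arrays of the same replicate number correlated at 0.341, 0.17 and 0.58 for replicates 1 to 3, after their group means were removed. Arrays of unlike number correlated at -0.475 to 0.144. The 0.144, between control replicate 2 and BMP4 replicate 1, was close to the 0.17 of replicate 2. Shared deviations by replicate number were thus clear for replicate 3 but not for replicate 2. With the number as a block, 65 genes passed (0.379%), 52 higher (0.303%) and 13 lower (0.0758%), and these include all 20 above. In a fit of the control and BMP4 arrays alone, without the GREM1 arrays, 5 genes passed, namely Fabp7, Sp7, Smad7, Itga3 and Gm20758, and the other 15 lost the call. With the block in that smaller fit, 19 genes passed, 11 of them among the 20.

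Fabp7 had the largest rise. It encodes brain-type fatty acid binding protein, a cytosolic carrier of long-chain fatty acids known from radial glia. Its level was 5.34, 5.40 and 5.43 in the controls and 7.64, 7.94 and 7.67 with BMP4. The lowest BMP4 array lay 2.21 above the highest control, with no overlap. The difference was 2.36 ± 0.11 (SE, n = 3 arrays in each group), which is 5.12-fold, with an adjusted p of 2.7e-05 in limma.

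Sp7, also called osterix, is a zinc finger transcription factor that osteoblasts need to form. Control arrays measured 7.10, 7.19 and 7.10, and BMP4 arrays 9.17, 9.22 and 8.94. The groups were far apart, with all 3 BMP4 arrays close together. It rose by 1.98 ± 0.10 (SE), 3.95-fold, with an adjusted p of 2.7e-05.

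The list of BMP-SMAD target genes held 22 genes, of which 20 were tested; Dlx5 was too dim to test. Smad7 and Sp7 passed the test. The median difference of the 20 was 0.415, against -0.01 over all genes tested, and 18 of the 20 lay above 0. Unadjusted p was under 0.05 for 13 members, all of them higher with BMP4, against 4.03% of all tested genes higher and 3.99% lower at that p. In 11 members every BMP4 array lay above every control array, which was so for 5.31% of all tested genes, with 5.9% separated the other way. The list was chosen with earlier results of these data known, so its median and these counts are not independent support.

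Among the inhibitory SMADs, which sit on activated receptors and shut the signal off, Smad7 rose. Its level was 7.66, 7.83 and 7.90 in the controls and 8.93, 8.93 and 9.08 with BMP4, a difference of 1.18 ± 0.13 (SE; adjusted p = 0.0154). Smad6, the inhibitor that acts mainly on BMP signals, measured 6.25, 6.13 and 6.13 without and 7.06, 7.14 and 7.42 with BMP4. These values do not overlap either, yet the difference of 1.03 ± 0.18 missed the threshold (adjusted p = 0.0796, and 0.0638 with the replicate block). Smad9, a receptor SMAD whose gene is itself a BMP target, measured 5.11, 5.33 and 5.05 against 5.32, 5.65 and 5.98, and the groups overlapped (0.49, adjusted p = 0.465).

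None of the 4 Id genes passed the test. Id1 measured 9.33, 9.49 and 10.04 in the controls and 9.83, 10.12 and 10.46 with BMP4. Id3 measured 7.39, 8.59 and 9.12 in the controls and 8.96, 9.32 and 9.77 with BMP4. In both genes replicate 1 was the lowest and replicate 3 the highest array of each group, so the groups overlapped although every BMP4 array exceeded the control of its own number. The differences were 0.52 ± 0.21 for Id1 and 0.99 ± 0.41 for Id3 (adjusted p = 0.600 for both; with the replicate block 0.0742 and 0.0775). Without control replicate 1 the Id3 difference was 0.50, and leaving out each array in turn moved it between 0.50 and 1.36. Id4 differed by 0.40 without overlap (adjusted p = 0.429) and Id2 by 0.08 (adjusted p = 0.934).

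Of the 6 tested homeobox genes of the list, 2 passed with the replicate block and none without it. Dlx2, a distal-less homeobox gene of the face and forebrain, measured 7.14, 7.37 and 7.46 against 7.78, 7.98 and 8.15 (0.65 ± 0.14, adjusted p = 0.247; 0.0138 with the block). Dlx3, a distal-less gene of bone, hair and placenta, measured 6.82, 7.13 and 6.65 against 7.42, 7.54 and 7.42 (0.60 ± 0.12, adjusted p = 0.193; 0.0441 with the block). Neither pair of groups overlapped. Prrx2, a homeobox gene of limb and face mesenchyme, differed by 0.34 (adjusted p = 0.374), and Dlx1 and Msx2 by 0.14 and 0.27 with overlapping groups. Msx1 was at -0.09. These 4 missed the threshold with the block too (adjusted p = 0.182 for Prrx2, 0.707 for Dlx1, 0.474 for Msx2 and 0.748 for Msx1).

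The bHLH repressor genes Hey1 and Hes1, which BMP and Notch signals share as targets, differed by 0.48 (adjusted p = 0.140) and 0.19 (adjusted p = 0.650). Hey1 measured 5.98, 5.95 and 6.0 without and 6.42, 6.46 and 6.50 with BMP4, a tight and complete separation. Atoh8, another bHLH factor, differed by 0.43, Junb, a subunit of AP-1, by 0.37, and the pseudoreceptor gene Bambi by 0.15, all without overlap and without passing the test.

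**Figure D3:**
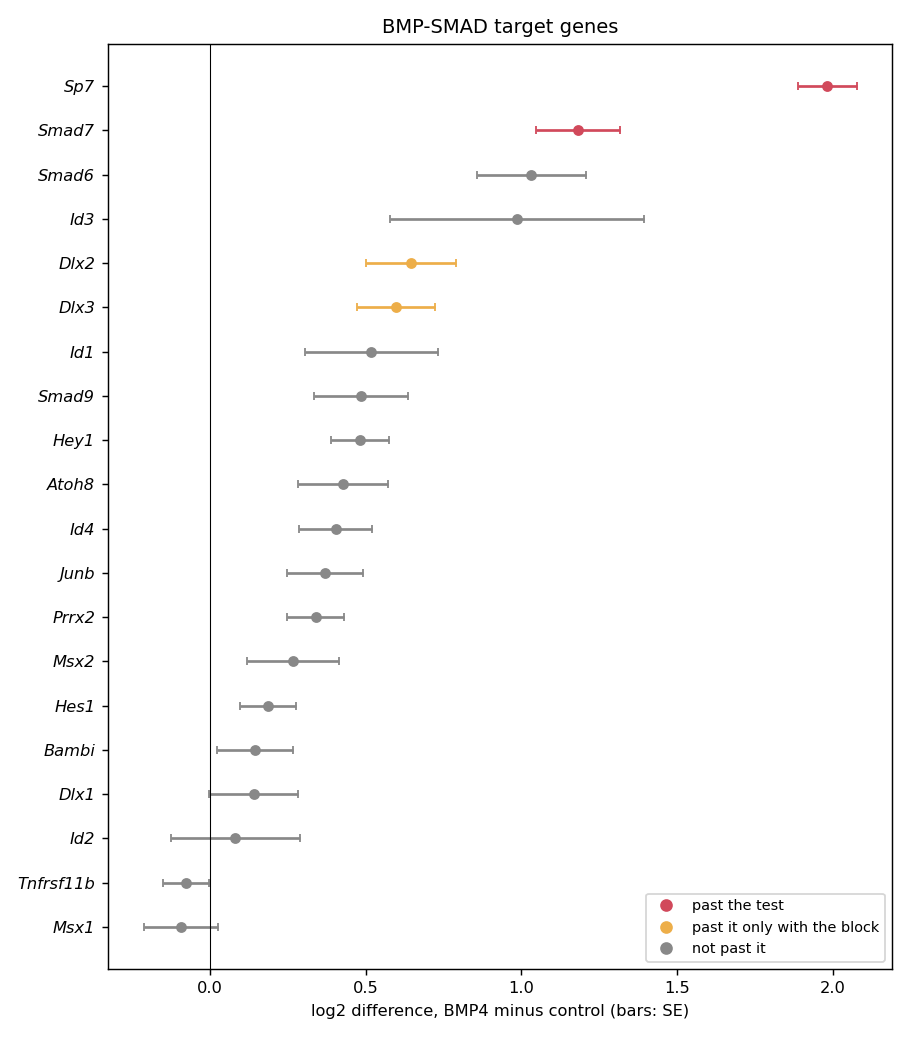
Log2 difference, BMP4 minus control, of the 20 tested BMP-SMAD target genes, with SE bars and the test result in colour. Sp7 and Smad7 passed the test, Dlx2 and Dlx3 passed only with the replicate block, and Id3 has the widest bar (0.41).

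The promoters of 4 genes that rose are printed because SMAD proteins are known to bind short motifs near the genes they control. They are the 250 bases before the RefSeq transcript start in build GRCm38.p6, for Fabp7 at chr10:57784673-57784922 (plus strand), Ptgs2 at chr1:150099781-150100030 (plus), Vegfc at chr8:54077282-54077531 (plus) and Btg2 at chr1:134079156-134079405 (minus), each written 5′ to 3′ along the gene. Capitals mark GGCGCC and GGAGCC, letters bound by BMP-activated SMADs, and CAGAC, a SMAD-binding element, on either strand.
Fabp7: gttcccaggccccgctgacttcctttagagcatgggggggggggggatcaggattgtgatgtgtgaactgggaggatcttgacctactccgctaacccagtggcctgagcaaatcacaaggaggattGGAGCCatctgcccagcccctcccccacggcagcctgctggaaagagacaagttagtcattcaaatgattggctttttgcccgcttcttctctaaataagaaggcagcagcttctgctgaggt
Ptgs2: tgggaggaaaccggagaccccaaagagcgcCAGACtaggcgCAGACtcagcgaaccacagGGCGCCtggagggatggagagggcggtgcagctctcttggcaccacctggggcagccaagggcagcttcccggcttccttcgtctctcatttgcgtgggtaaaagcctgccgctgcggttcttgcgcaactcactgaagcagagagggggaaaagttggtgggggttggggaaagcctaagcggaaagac
Vegfc: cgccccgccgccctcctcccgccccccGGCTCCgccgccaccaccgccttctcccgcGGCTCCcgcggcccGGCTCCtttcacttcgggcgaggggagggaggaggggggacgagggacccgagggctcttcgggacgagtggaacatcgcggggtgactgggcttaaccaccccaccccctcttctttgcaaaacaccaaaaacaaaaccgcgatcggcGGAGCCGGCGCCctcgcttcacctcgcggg
Btg2: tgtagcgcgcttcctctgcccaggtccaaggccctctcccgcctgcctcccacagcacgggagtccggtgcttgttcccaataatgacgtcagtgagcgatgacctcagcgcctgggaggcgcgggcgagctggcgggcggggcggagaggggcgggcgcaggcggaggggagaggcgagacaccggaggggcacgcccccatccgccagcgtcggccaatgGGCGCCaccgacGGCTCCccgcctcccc
The Ptgs2, Vegfc and Btg2 windows hold GGCGCC at 1 place each, whereas the Fabp7 window holds GGAGCC only, at 1 place. Vegfc also holds GGAGCC at 4 places and Btg2 at 1, and Ptgs2 holds CAGAC at 2.
Of the 16 genes that rose, 12 had a promoter in the table, and Sp7, Smad7, Tmem119 and Car8 did not. The 4 printed windows do not stand for all 12. Those of Htra3 and Lgr6 hold none of the marked motifs, and that of Pdgfc holds CAGAC only. GGCGCC stood in 6 of these 12 (50%), against 14.9% of the promoters of tested genes and 9.54% of all 27025 promoters of the same length. GGAGCC stood in 7 (58.3%, against 33.8% and 25.7%) and CAGAC in 3 (25%, against 41.7% and 42.1%). The median GC content was 66.2% in the 12 promoters, 58.4% over tested genes and 52% over all, and its part in the GGCGCC count was not tested. Of the 4 genes that fell, 0 had GGCGCC in this window, 2 had GGAGCC (50%) and 2 had CAGAC (50%). These matches describe letters only.

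No gene of the BMP ligands, antagonists, receptors or relaying SMADs passed the test. The 14 tested BMP and activin ligands had a median difference of -0.05. The cells' own Bmp4 lay below the filter, at 3.77, 4.07 and 3.77 in the controls and 3.77, 3.82 and 3.73 with BMP4. Inhba, the activin A subunit, differed by 0.40 with overlapping groups (adjusted p = 0.726).

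Crim1 was the only one of 16 tested antagonists to pass with the replicate block. It encodes a membrane protein that binds BMPs where they are made. Its arrays read 7.08, 7.07 and 7.39 without and 7.85, 7.87 and 8.16 with BMP4, with no overlap (0.78 ± 0.12, adjusted p = 0.0504; 0.0138 with the block). Noggin (Nog), a secreted BMP trap, differed by 0.42 with overlap (adjusted p = 0.634). Grem1, a secreted antagonist from the DAN family, measured 7.57, 7.44 and 7.61 against 7.69, 7.75 and 7.29 (0.04, adjusted p = 0.954), and the sign turned in some alternative fits.

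Of 20 tested receptors, co-receptors and relaying SMADs, the BMP type I receptor Acvr1 had the largest difference, 0.37 ± 0.09 (adjusted p = 0.266), from 7.69, 7.81 and 7.80 to 8.09, 8.10 and 8.22. The groups did not overlap. Bmpr1a, another type I receptor, was at 0.12, the type II receptor Bmpr2 at -0.05, Smad1 at 0.09, Smad5 at -0.05 and Smad4 at 0.04. Bmpr2 and Smad4 changed sign between fits.

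TGF-beta ligands and target genes gave 0 of 18 past the test. The unadjusted limma p was under 0.05 for 5 higher and 1 lower member, against 4.03% of all tested genes higher and 3.99% lower. The list's median was 0.23, and 0.14 without control replicate 1. Tgfb1, the ligand itself, measured 6.18, 6.79 and 6.39 against 7.51, 7.33 and 7.15 (0.88 ± 0.20, adjusted p = 0.265). Lox, which crosslinks collagen, and Skil, a SMAD co-repressor, were at 0.40 and 0.29, and the matrix glycoprotein gene Tnc was at -0.44 (adjusted p = 0.183).

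Beside Sp7, 1 of the 12 tested osteoblast genes rose, Tmem119, which encodes a membrane protein of the osteoblast lineage. It measured 6.71, 6.93 and 6.75 in the controls and 7.57, 7.78 and 7.66 with BMP4. The groups were well separated (0.87 ± 0.09, adjusted p = 0.00968). The list's median was -0.06. Bglap, which encodes the bone protein osteocalcin, read 5.11, 5.25 and 5.00 against 4.88, 4.95 and 4.33, lower in each BMP4 array (-0.40, adjusted p = 0.588). Alpl, the alkaline phosphatase of mineralizing cells, was at -0.11 (adjusted p = 0.814), and Sost, an osteocyte antagonist of Wnt signals, at 0.34 (adjusted p = 0.650). None of 9 tested cartilage genes passed (median -0.06), and Col2a1, the main cartilage collagen, was at -0.28.

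Fabp7 was the single adipocyte list member of 15 tested that passed, and it is better known from glia than from fat. The list's median was 0.03. Pparg, the master factor of fat cells, measured 6.98, 6.67 and 6.57 against 6.78, 7.12 and 7.04, with overlap (0.24, adjusted p = 0.661). Ppargc1a, a coactivator that drives mitochondrial gene expression, measured 6.46, 6.43 and 6.46 against 5.89, 5.87 and 5.87. Each group was tight, and the difference of -0.57 ± 0.09 came just outside the threshold (adjusted p = 0.0504; 0.0398 with the block).

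Genes of secreted growth factors changed in both directions. Vegfc, a growth factor for lymphatic vessels, measured 7.44, 7.49 and 7.49 in the controls and 8.30, 8.19 and 8.69 with BMP4 (0.92 ± 0.13, adjusted p = 0.0331). Pdgfc, a ligand of the PDGF alpha receptor, measured 7.17, 7.32 and 7.28 against 7.99, 8.04 and 7.97 (0.74 ± 0.10, adjusted p = 0.0400). Neither gene's groups overlapped, and these were 2 of 12 tested VEGF, PDGF and angiopoietin genes (median -0.02). Pgf, placental growth factor, measured 5.06, 5.46 and 6.07 against 5.98, 6.36 and 6.91. Its groups overlapped, but each BMP4 array exceeded the control of its number by 0.85 to 0.93 (0.89, adjusted p = 0.467; 0.0220 with the block). Vegfa was at 0.32 (adjusted p = 0.465).

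Fgf9, a ligand for FGF receptors, fell. It measured 4.83, 4.58 and 4.80 in the controls and 4.07, 4.01 and 4.14 with BMP4 (-0.66 ± 0.09, adjusted p = 0.0331). The BMP4 arrays lie close to the filter's threshold of 3.89 to 4.02, so the level with BMP4 is near the dim end of the array. It was 1 of 14 tested FGF, IGF, HGF and neuregulin ligands to pass (median -0.05), with Fgf10 at -0.35 and Ereg at 0.28.

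Of the chemokine and cytokine list, 1 of 14 tested members rose (median -0.01), Il13ra1, a receptor chain for IL-13 and IL-4. Its arrays read 5.34, 5.35 and 5.45 without BMP4 and 6.06, 6.07 and 6.12 with it, both groups tight and apart (0.70 ± 0.09, adjusted p = 0.0276). Cxcl12, a chemokine that guides migrating progenitors, measured 8.22, 8.49 and 9.0 against 9.02, 9.19 and 9.77 (0.76, adjusted p = 0.520; 0.0135 with the block), and its receptor gene Cxcr4 measured 7.25, 7.37 and 6.92 against 7.74, 8.08 and 7.67 (0.65, adjusted p = 0.193; 0.0448 with the block). In both, no BMP4 array fell within the range of the controls.

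Lgr6, a receptor for R-spondins that strengthens Wnt signals, rose from 7.60, 7.69 and 7.69 to 8.83, 8.61 and 9.05 (1.17 ± 0.12, adjusted p = 0.00960). All BMP4 arrays were at least 0.92 above the highest control. It was 1 of 33 tested Wnt pathway genes to pass, and their median was 0.05. Lef1, a transcription factor at the end of the Wnt pathway, read 6.79, 6.78 and 6.78 against 6.28, 6.22 and 6.39. That is lower in each BMP4 array without passing (-0.48 ± 0.08, adjusted p = 0.0833). Axin2, a feedback inhibitor and Wnt target, was at -0.35 and the secreted Wnt binder Sfrp2 at 0.62.

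Among 17 tested Notch pathway genes (median 0.01) none passed. Lfng, which adds sugar to Notch receptors and tunes their ligand choice, was at 0.64 ± 0.11 (adjusted p = 0.0833; 0.0307 with the block). Notch1 and Notch3 were at -0.37 and -0.30.

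Ptgs2, cyclooxygenase-2, makes the precursor of prostaglandins and rose 2.42-fold. It measured 7.81, 8.06 and 8.15 in the controls and 9.02, 9.35 and 9.48 with BMP4, with no overlap (1.27 ± 0.13, adjusted p = 0.00968). Of 11 tested prostaglandin genes it was the 1 that passed (median 0.08). Ptger4, a receptor for prostaglandin E, measured 7.04, 7.14 and 7.20 against 7.67, 7.53 and 7.74 (0.52 ± 0.08, adjusted p = 0.0628).

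Car8, a carbonic anhydrase relative without enzyme activity that binds the IP3 receptor, rose 2.19-fold. Its level was 7.34, 7.62 and 7.66 in the controls and 8.43, 8.64 and 8.95 with BMP4 (1.13 ± 0.14, adjusted p = 0.0191). The groups stood 0.77 apart at their nearest arrays. Car3, the carbonic anhydrase of slow muscle fibres, measured 9.40, 9.65 and 8.98 against 10.62, 10.67 and 9.75, and only the block brought it past the test (1.00, adjusted p = 0.378; 0.0105 with the block). Car4 and Car11 were at -0.47 and -0.36. Over the 12 tested members of the family the median was -0.02.

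Of 16 tested collagen-modifying enzymes, P4ha3, a catalytic subunit of prolyl 4-hydroxylase, rose. It measured 4.43, 4.65 and 4.65 against 5.41, 5.34 and 5.84 (0.95 ± 0.13, adjusted p = 0.0331), with BMP4 replicate 3 the highest. The list's median was 0.19, and 0.08 without control replicate 1. Serpinh1, the collagen chaperone, was at 0.46 (adjusted p = 0.556). None of 15 tested collagen genes passed. Their median was 0.10, which became 0.01 when control replicate 1 was left out, with Col12a1, a collagen on the surface of fibrils, highest among the named ones at 0.53.

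Htra3, a secreted serine protease, rose from 5.78, 5.73 and 5.67 to 6.60, 6.49 and 6.48 (0.80 ± 0.10, adjusted p = 0.0249). Adgrg3, an adhesion G protein-coupled receptor, rose from 5.80, 5.99 and 5.72 to 6.66, 6.75 and 6.91 (0.94 ± 0.11, adjusted p = 0.0154). Both genes' groups were separate.

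Itga3, the alpha subunit of a laminin-binding integrin, fell. It measured 8.53, 8.55 and 8.49 in the controls and 7.69, 7.70 and 7.73 with BMP4. The spread within each group was below 0.06 and the gap between them 0.76 (-0.81 ± 0.09, adjusted p = 0.0154). Of the 17 tested integrin subunits it was the 1 that passed (median 0.07). Other subunits were at 0.36 (Itgb4), 0.35 (Itgb1, the partner of the alpha 3 chain) and -0.29 (Itgb8).

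Btg2, an antiproliferative gene that curbs the G1 to S transition, rose from 7.53, 7.59 and 7.59 to 8.33, 8.33 and 8.64 (0.86 ± 0.12, adjusted p = 0.0331). No other gene of the 21 tested cell cycle inhibitors passed (median 0.13, and 0.08 without control replicate 1). Gas6, a growth arrest gene and ligand of the Axl receptor, passed with the block alone (0.74, adjusted p = 0.295; 0.0138 with the block), and Tob1, a relative of Btg2, was at 0.31.

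Neither proliferation list held a gene past the test. The 34 tested replication genes had a median of 0.03 and the 38 tested mitosis genes 0.06, and without control replicate 1 these were -0.04 and -0.02. Rrm2, which makes deoxynucleotides, was at 0.66 ± 0.20 (adjusted p = 0.448). Cdk1 was at 0.31 with overlapping groups. Mki67 measured 8.66, 8.61 and 9.07 against 8.62, 8.61 and 9.12, a difference of 0.00 ± 0.17 whose sign turned between fits.

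Muscle genes stayed without a call. None of 19 myogenic regulators (median 0.02), 38 sarcomere genes (0.04), 24 excitation-contraction and acetylcholine receptor genes (0.08) or 18 fusion genes (0.01) passed the test. Myod1, which commits cells to muscle, measured 9.02, 9.39 and 9.63 against 9.64, 9.72 and 9.94, a narrow separation (0.42 ± 0.17, adjusted p = 0.588, and 0.26 without control replicate 1). Myog, which drives differentiation, measured 9.88, 10.46 and 9.69 against 10.55, 10.72 and 9.70, and the groups overlapped (0.32 ± 0.27, adjusted p = 0.788).

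Myf5, an early myogenic factor, and Pax7, the satellite cell factor, were at 0.18 ± 0.29 and 0.15 ± 0.15. For the muscle creatine kinase gene Ckm the difference was -0.28 ± 0.22, and for Myh3, embryonic myosin, 0.08 ± 0.16. In all 4 the groups overlapped, and the sign of Myf5, Pax7 and Myh3 turned when some arrays were left out. Of 19 tested satellite cell genes 0 passed, and Sdc3, a heparan sulfate proteoglycan of satellite cells, passed with the block (0.56, adjusted p = 0.0504; 0.0339 with the block), as did Cxcr4 above. Cd82, a tetraspanin of satellite cells, was at -0.36 and Sdc4 at -0.30, each lower in every BMP4 array without passing.

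**Figure D4:**
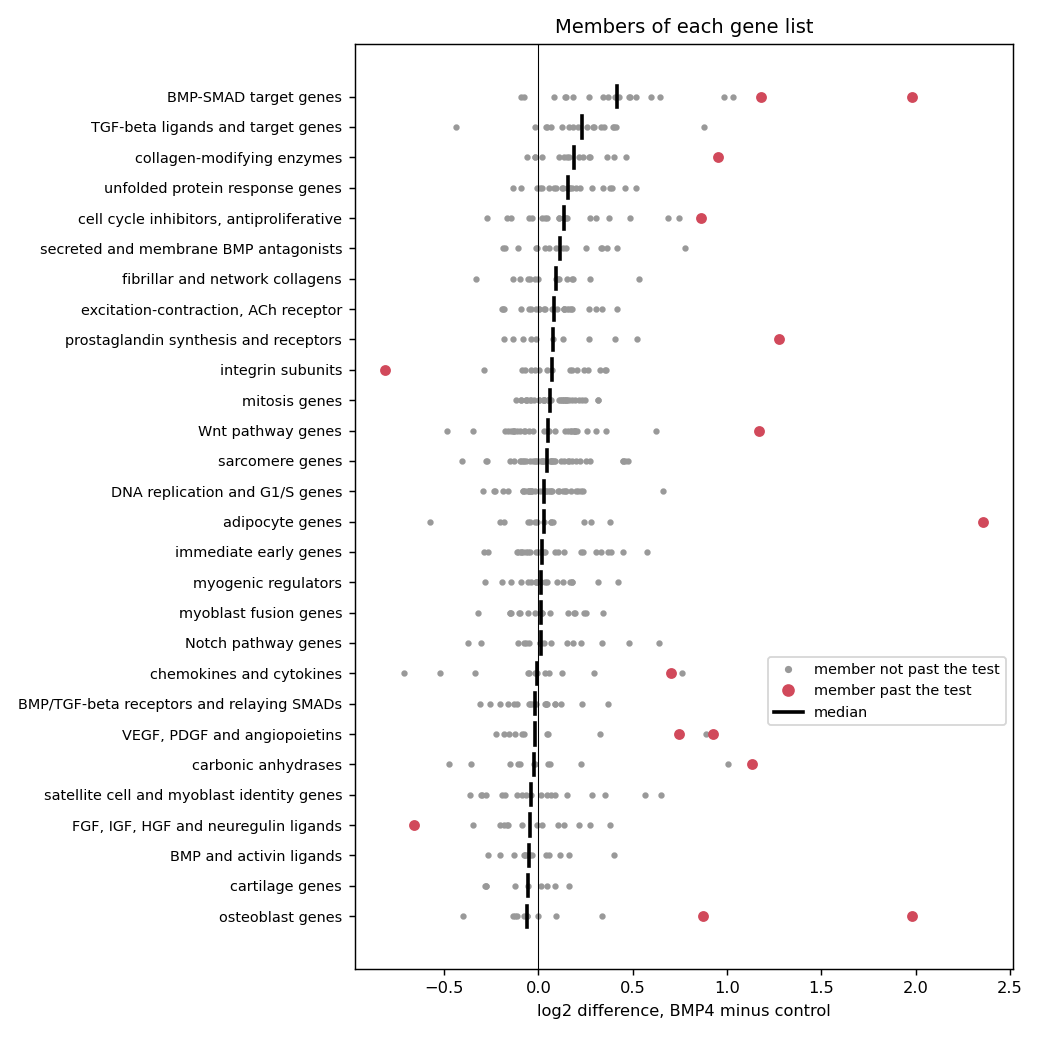
Log2 difference, BMP4 minus control, of each tested member of the gene lists, with the list's median as a bar and members past the test in red. The medians lie near 0 in most lists, and the BMP-SMAD target list has the highest (0.415). All lists were chosen with earlier results of these data known.

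Several other list medians near 0 also moved without control replicate 1. They went from 0.08 to 0.02 for prostaglandin genes, from 0.07 to 0.12 for integrins, from -0.06 to -0.11 for cartilage genes, from 0.03 to 0.07 for adipocyte genes and from 0.04 to 0.08 for sarcomere genes. The sign turned for FGF, IGF, HGF and neuregulin ligands (-0.05 to 0.06), fusion genes (0.01 to -0.05) and myogenic regulators (0.02 to -0.01). It turned as well for carbonic anhydrases (-0.02 to 0.02) and for chemokines and cytokines (-0.01 to 0.005).

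The other genes past the test belong to none of the lists. Whrn, which encodes the scaffold protein whirlin, rose from 6.44, 6.51 and 6.53 to 7.45, 7.28 and 7.50 (0.92 ± 0.09, adjusted p = 0.00960). Fam135a rose from 8.48, 8.46 and 8.48 to 9.04, 9.0 and 8.99, the smallest change among the genes that rose with tight groups (0.54 ± 0.07, adjusted p = 0.0276). Trp53i11, a p53-induced gene, fell from 9.74, 9.86 and 9.97 to 9.05, 8.97 and 9.26 (-0.77 ± 0.11, adjusted p = 0.0487). It was the gene nearest to the threshold among those that passed. Gm20758, a predicted long non-coding RNA gene chosen after its values were seen, fell from 5.88, 5.94 and 5.84 to 4.97, 5.03 and 5.10 (-0.85 ± 0.10, adjusted p = 0.0191).

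Just outside the threshold, 7 named genes shared an adjusted p of 0.0504. Beside Crim1, Sdc3 and Ppargc1a these were Unc5b, a netrin receptor (1.14), Msln, the surface protein mesothelin (-1.08), Dusp2, a MAP kinase phosphatase (0.75), and Erc1, a scaffold protein (0.54). Next came Cux1, a homeobox factor (0.51, adjusted p = 0.0541), the gamma-protocadherin gene Pcdhgb8 (-1.14, adjusted p = 0.0543) and Ddr1, a receptor kinase for collagen (0.60, adjusted p = 0.0594). In all 10 the groups did not overlap, which was so for 11.2% of all tested genes. The 10 were picked for their small adjusted p, so that is no separate evidence. Pcdhgb8 shares sequence with its neighbours in the protocadherin cluster, so its probe set may read more than 1 of them.

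The block on the replicate number brought 45 further genes past the test, 36 higher and 9 lower with BMP4. Every one of the 45 differed the same way in all 3 pairs. In 41 the groups also did not overlap, which was so for 11.2% of all tested genes. The block fit chose the 45 from these same values, so neither count is separate evidence. The controls of the 45 ranged over 0.45 at the median, against 0.11 for the 20 genes past the test without the block. A fit without the block tends to miss genes with a wide spread, so this too goes with the choice. In 22 of the 45, replicate 3 was the highest array of both groups, and the share of this over all tested genes was not counted. The largest fall, -2.28, belonged to 1 of 3 predicted genes among them.

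The largest rise among these was that of Cthrc1, a secreted protein made by matrix-producing cells, at 6.76, 6.60 and 7.28 without and 7.91, 8.13 and 8.66 with BMP4. The groups did not overlap, and each pair differed by 1.15 to 1.53 (1.35, adjusted p = 0.0594; 0.00427 with the block). Has2, which makes hyaluronan, measured 7.09, 7.27 and 7.60 against 7.92, 8.15 and 8.51. Its pairs differed by nearly equal amounts, 0.84 to 0.90 (0.87, adjusted p = 0.115; 0.0138 with the block). Selp, the adhesion receptor P-selectin, was at 1.12 (0.0252 with the block) and Sct, the peptide hormone secretin, at 1.11 (0.0160 with the block). Kctd12, a partner of GABA-B receptors, was at 1.05, and Pde7b, a cyclic AMP phosphodiesterase, at 1.11 (0.0279 and 0.0307 with the block).

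Of the genes lower with BMP4 that needed the block, Cavin2, a coat protein of caveolae, overlapped between the groups. It measured 7.54, 7.83 and 8.55 against 6.87, 7.09 and 7.67, lower in each pair by a similar amount (-0.76, adjusted p = 0.608; 0.0160 with the block). Gal, the neuropeptide galanin, was at -0.66, Nefm, a neurofilament subunit, at -0.67, and the transcription factor gene Nfib at -0.61, all without overlap (0.0220, 0.0376 and 0.0160 with the block).

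**Figure D5:**
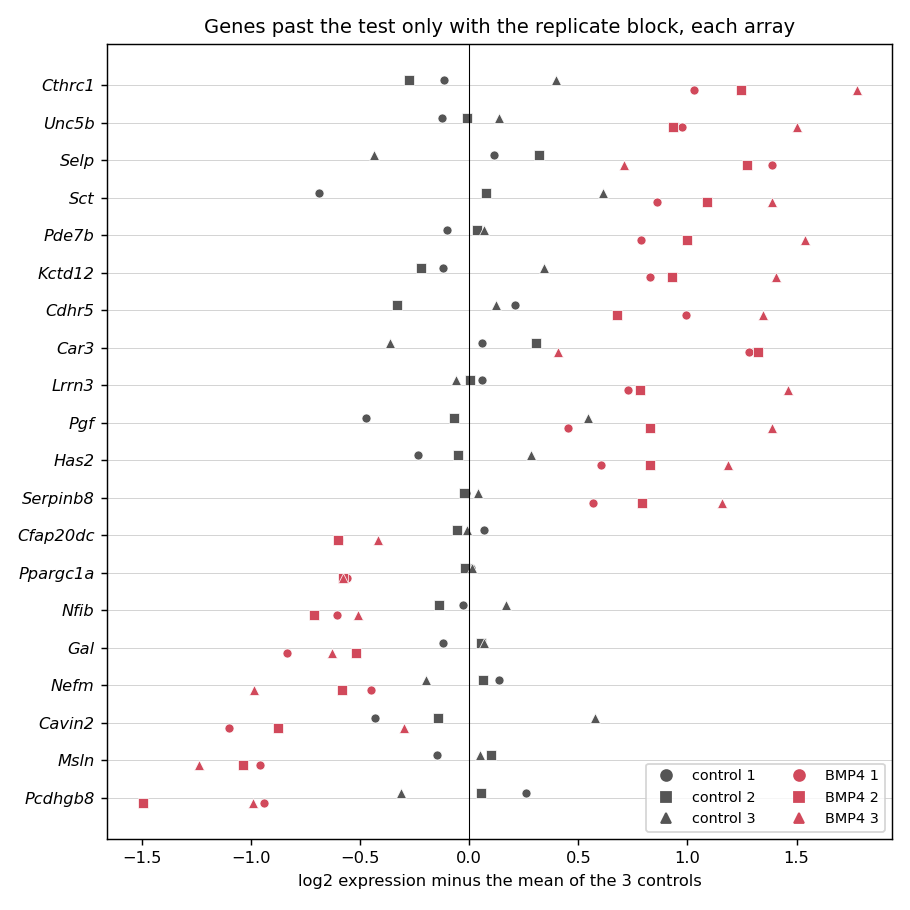
Genes that passed the test only with the replicate number as block, drawn per array as log2 level minus the mean of the 3 controls, with marker shapes for replicates 1 to 3. Arrays of the same number shift together in many genes, as in Pgf and Cavin2, where the groups overlap but each pair differs the same way.

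The GREM1 arrays share their controls with the BMP4 comparison, so the values stand side by side only. For Fabp7 the difference from control was 2.36 with BMP4 and -1.64 with GREM1, for Sp7 1.98 and -2.58, and for Lgr6 1.17 and -1.94. Smad7 stood at 1.18 and -1.03, Ptgs2 at 1.27 and -1.16, and Car8 at 1.13 and -1.59. For Fgf9 the pair was -0.66 and 1.10, and for Itga3 -0.81 and 0.51. Gm20758 stood at -0.85 and -0.33, the latter without passing. Tmem119 and Btg2 gave 0.87 and 0.86 with BMP4 and -0.23 and -0.23 with GREM1, the latter without passing. Of all tested genes 4.28% passed in the GREM1 comparison, 2.07% higher and 2.21% lower.

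Of 6 tested markers of pericytes and smooth muscle, 3 lay above 0 and 3 below. The mean level of the 7 markers was 5.16 to 5.25 in the controls and 5.35 to 5.51 with BMP4, with Kcnj8 below the filter. Cspg4 (0.50), Mcam (0.61) and Rgs5 (0.60) were higher at an unadjusted limma p under 0.05, as were 4.03% of all tested genes. None of the markers passed the adjusted test, and Myh11, Abcc9 and Pdgfrb were at -0.01, -0.03 and -0.04. Their part in the genes above was not tested. The mean levels of fibroblast, endothelial, leukocyte, Schwann and tendon markers overlapped between the groups. Of the unfolded protein response list, 0 of 22 genes passed, and the median of 0.16 was 0.06 without control replicate 1, in which Hspa5, the main chaperone of the endoplasmic reticulum, read 9.62 against 10.40 and 10.64 in the other controls. Immediate early genes gave 0 of 26 past the test (median 0.02), with Klf4 at 0.58 and Klf10 at 0.45. Their unadjusted limma p was under 0.05 for 6 higher and 2 lower members, against 4.03% and 3.99% of all tested genes. Other lists held such members too. They were 5 higher and 0 lower of 16 collagen-modifying enzymes, and 4 higher and 0 lower of 12 VEGF, PDGF and angiopoietin genes.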

How the data were processed

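RNA of 9 myoblast samples was amplified and hybridised to 1 Affymetrix array each. The deposited values are log2 expression levels that the authors made by RMA. Expression Console of Affymetrix is the program that the submitters' processing notes name. The genome build and the array model are both not given in the sources used here. Of 24973 probe sets, 24015 carried 1 gene symbol, and 958 had no name here. For 4 genes with several probe sets the probe set brightest on average over all 9 was kept, giving 24011 genes. Dim genes were removed (6869) unless 3 or more arrays exceeded the 30th percentile over the named probe sets of that array (3.89 to 4.02), leaving 17142. Removed genes count as not tested, not as unchanged.

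Differences were fitted with limma 3.58.1 in R 4.3.3 (lmFit, eBayes, two-sided) on all 9 arrays, with Benjamini-Hochberg adjustment over the tested genes and a threshold of 0.05. The median SE was 0.115. The fit was tested on simulated data. Between the BMP4 and control groups, arrays of the same replicate number in the labels' titles deviated together, clearly for replicate 3 but not for replicate 2. The replicate number was therefore also used as a block. Alternatives were fits of these groups alone, with and without the block, a variance trend, array weights, another normalization or centring, other filters, and leaving out each array.

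Named genes are all that passed, the next 10 by adjusted p (predicted genes skipped), the largest block-only changes (up to 12 in each direction), all BMP-SMAD targets, up to 4 members of each other list with the smallest p, and a few muscle and BMP pathway genes. Gene lists are described by counts and medians, without a set test. The comparison, the 28 lists, the 7 marker lists and this rule were chosen with earlier results of these data known.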

Additional observations from a re-analysis of the deposited data

Results flagged for a closer look

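Among 713 tested probe sets without a gene name here, which the comparison above does not use, 1 passed the limma test for BMP4 against control. It measured 6.12, 5.70 and 6.19 in the controls and 4.62, 4.60 and 4.88 with BMP4, with no overlap, a difference of -1.30 ± 0.16 (SE, adjusted p = 0.0204). With GREM1 it measured 5.79, 5.49 and 5.93.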

How the results depend on the processing

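Of 20 genes past the test, 16 higher and 4 lower with BMP4, the count was 65 (52 and 13) with the replicate block, 5 (3 and 2) with only control and BMP4 arrays, 68 (51 and 17) with array weights and 31 (7 lower) with a filter at the 50th percentile. Quantile normalization once more gave 7 lower and centring on array medians 2 lower. Leaving out each array gave 2 to 17 genes in all, 2 to 13 higher and 0 to 4 lower, and leaving out replicate 1 of all groups, chosen after seeing the data, gave 0, 0 higher and 0 lower in limma, with 888 genes at an unadjusted p under 0.05. The cause of these shifts was not tested. All 20 genes kept their direction in every fit. On all 9 arrays the replicate block ended no call of the 20 and added the 45 described above, whereas on only control and BMP4 arrays it gave 19 genes and kept 11 of the 20. Signs that turned belong to genes that did not pass. The sign turned with array weights for Cd68 (-0.0160), Dlx1 (-0.0209), Mki67 (-0.0119) and Tie1 (0.0842). With quantile normalization once more it turned for Grem1 (-0.00270), Mki67 (-0.0482) and Smad4 (-0.00503). Without replicate 1 of all groups it turned for Cd68 (-0.0768), Gfra3 (0.00888), Grem1 (-0.00992), Smad4 (-0.0458) and Tie1 (0.0748), and Mbp came to 0.00. Leaving out each array in turn moved Bmpr2 from -0.123 to 0.0446, Cd68 from -0.0559 to 0.0802, Cdh5 from -0.181 to 0.00458, Chrne from -0.299 to 0.000882, Col15a1 from -0.194 to 0.0327, Grem1 from -0.0492 to 0.179, Id2 from -0.0471 to 0.204, Mki67 from -0.167 to 0.149, Msx1 from -0.206 to 0.0396, Myf5 from -0.0362 to 0.431, Myh3 from -0.0604 to 0.236, Pax7 from -0.00277 to 0.229, Pdgfrb from -0.0813 to 0.0115, Smad4 from -0.0561 to 0.132 and Tie1 from -0.320 to 0.0982. Among values of named genes under an alternative, 3211 kept direction and side of the threshold, 90 newly passed and 166 lost the call. List medians moved by more than the spread in 7 values. With 3 arrays a group, low counts of calls do not show that other genes were unaffected.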
